A study of Homo sapiens with 27 samples.

Results

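The eukaryotic translation initiation and elongation factors were followed in 3 human prostate cancer cell lines given IPI-9119, which blocks FASN, the fatty acid synthase that builds palmitate. The genes were chosen by name, as every symbol that begins EIF1 to EIF6, EEF1 or EEF2, leaving out the kinases EIF2AK and EEF2K, the EIF4EBP repressors, EEF1E1, Y-chromosome copies and pseudogenes, with a value of at least 10 in at least 3 libraries. This gave 54 of the 20987 genes in the table, of which 14591 passed the same level rule. The choice used no measured difference between groups. By role, 4 genes were placed with scanning and start-codon choice, 4 with eIF2 subunits or a copy of one, 5 with eIF2B and 14 with eIF3. The eIF4 group held 13, subunit joining or related steps 5, eIF5A 3, eEF1A 2, eEF1B 3 and eEF2 1. EIF1AD (scanning), EIF4A3 and EIF4ENIF1 (eIF4 group) were placed with the family of their symbol and need not act in that step.

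The treated groups had 100 nM or 500 nM IPI-9119 in LNCaP (labelled androgen sensitive), 22Rv1 and LNCaP95 (both labelled castration resistant), and each line had a DMSO vehicle group. All cells had 6 days of drug or vehicle without a change of medium, and each of the 9 groups had 3 libraries of poly(A) RNA. Each group is 1 cell line, and the labels do not say that its 3 libraries came from separate cultures, so p-values measure the spread between libraries, which may be technical. Both doses of a line share the same DMSO libraries.

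Translation of most mRNAs begins when eIF2, bound to GTP and the initiator tRNA, joins eIF1, eIF1A, eIF3 and eIF5 on the small ribosomal subunit. The eIF4F complex (cap-binding eIF4E, scaffold eIF4G and helicase eIF4A) brings that subunit to the capped mRNA. eIF5B joins the large subunit, and eIF2B recharges the released eIF2 with GTP. In elongation eEF1A delivers aminoacyl-tRNA, eEF1B recharges eEF1A, and eEF2 moves the ribosome along the mRNA. In vertebrates eEF1A, eEF2, several other factors and the ribosomal proteins are encoded by mRNAs that start with a C followed by an unbroken run of pyrimidines, the 5′ terminal oligopyrimidine (TOP) tract, and translation of these mRNAs depends on mTOR and LARP1.

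Values are the authors' normalised counts, which were whole multiples of the value of 1 read in all 27 libraries. The recovered totals were between 14757874 and 26578881 reads per library. KLK3, HOXB13, FOLH1, KRT8, KRT18 and FOXA1, markers of luminal prostate cells, were present in every library, the endothelial marker PECAM1 was at 0 in all 27, and the basal marker KRT5 was at most 2.40. PTPRC, a leukocyte gene, was between 65.4 and 139 in LNCaP95 libraries, against at most 9.28 in the other lines. COL1A1, a fibroblast gene, was present in every library, at 595 to 892 in LNCaP95, 248 to 441 in LNCaP and 202 to 261 in 22Rv1. The 54 factors took 4.06 to 4.24% of reads in LNCaP at 500 nM, against 5.39 to 5.69% in LNCaP DMSO. They took 3.80 to 3.88% in 22Rv1 at 500 nM, against 3.39 to 3.50% in 22Rv1 DMSO. In LNCaP95 they took 2.04 to 2.15% at 500 nM, against 2.02 to 2.06% in DMSO. The ribosomal protein genes moved alongside in LNCaP, with 10.5 to 11.0% of reads at 500 nM against 13.4 to 15.6% in DMSO, and their part in the results was not tested. Replicate 2 of 22Rv1 at 100 nM had 14.1% of reads in ribosomal protein genes, against 10.2 to 11.7% in the other 22Rv1 libraries. Replicate 3 of 22Rv1 DMSO had 18444 genes above 0, against 15585 to 15962 in the others, and replicate 2 of LNCaP95 had 7.56 and 6.92% mitochondrial reads at 100 and 500 nM, against at most 4.45% in any other library. In bulk RNA fewer cells of a type and less RNA per cell cannot be told apart.

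**Figure D1:**
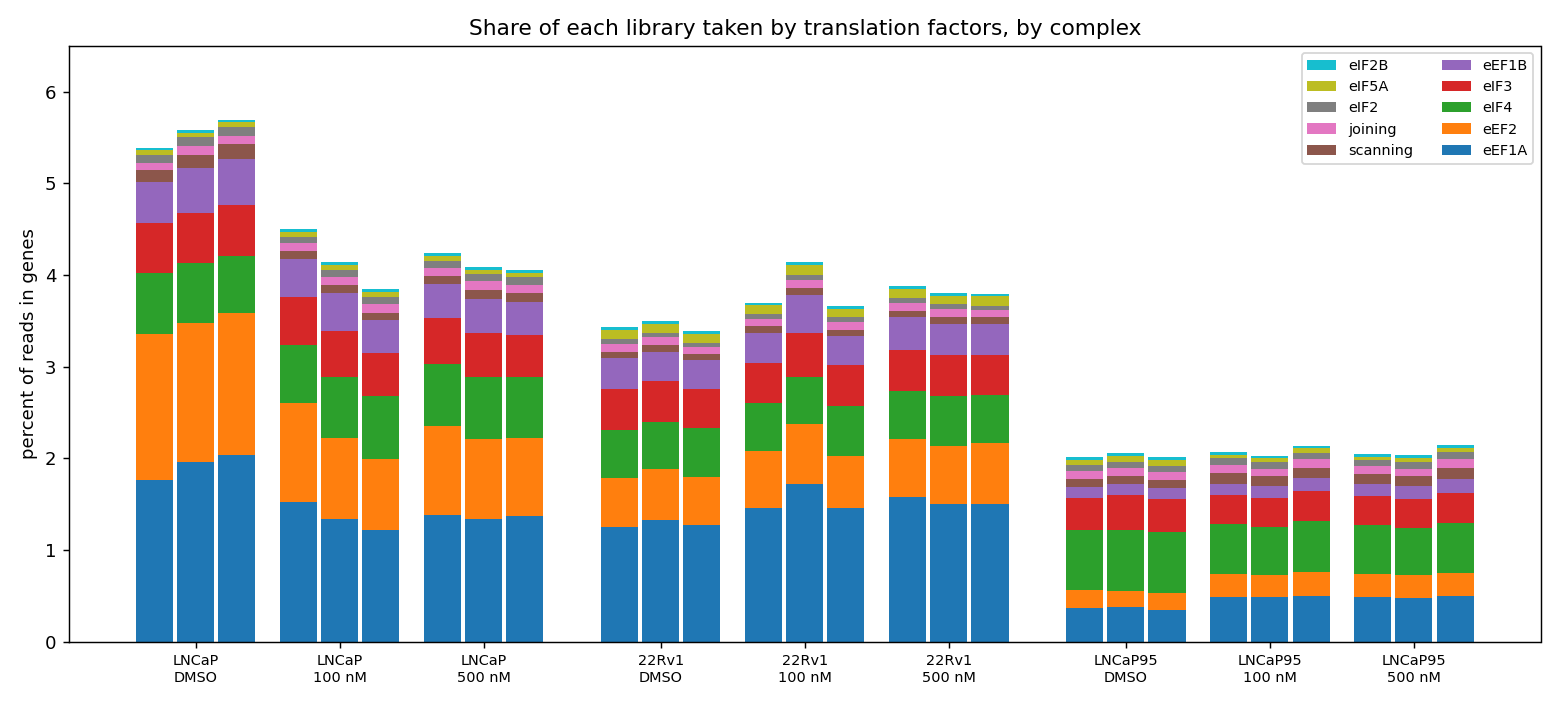
Share of all reads in genes taken by the translation factors in each of the 27 libraries, in percent, stacked by complex. The bars stand at 4.06 to 4.24% in LNCaP at 500 nM against 5.39 to 5.69% in LNCaP DMSO, and at 2.02 to 2.15% in LNCaP95 with DMSO or 500 nM.

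The start sites are shown first, because 8 of the 11 factors that fell in LNCaP at 500 nM and have a start entry share a sequence feature there. The other 5 of the 16 that fell have no entry. RefSeq start sites (GRCh38.p14) were at hand for 44 of the 54 genes. An uninterrupted tract of a C followed by at least 4 pyrimidines, read on the strand of the gene from the annotated first base, stood at the start of 11 of them (25.0%), against 1104 of 27305 annotated promoters (4.04%) and 43 of 67 ribosomal protein genes (64.2%). Each line below gives 30 bases on the strand of the gene, 20 before the annotated start and 10 from it. Capitals mark the tract, and lines with no capitals have none. The sequences were chosen to show the pattern and 2 exceptions to it.
EEF2, chr19:3985454-3985483, minus strand: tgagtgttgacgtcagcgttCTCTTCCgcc
EEF1A1, chr6:73521023-73521052, minus strand: cagtagtcgccgtgaacgttCTTTTTCgca
EIF3F, chr11:7987317-7987346, plus strand: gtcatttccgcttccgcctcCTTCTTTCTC
EIF4B, chr12:53006436-53006465, plus strand: cgtgattgcctcatccgggtCTTTTgcgtt
EIF3D, chr22:36529157-36529186, minus strand: ccgctgcgcgcgcatgtttcCTCTTTTCCT
EIF2S3, chrX:24054936-24054965, plus strand: cagccggggtgatttccttcCTCTTTTggc
EIF4A1, chr17:7572805-7572834, plus strand: tcgataggcgggcactccgccctagtttct
EIF5A, chr17:7306979-7307008, plus strand: ccgagatgggtgggaacccgaccacactag
EIF2B3, chr1:44986586-44986615, minus strand: gcgccattgggctgtcagtcagaggcggcg
EEF1B2, chr2:206159589-206159618, plus strand: gttccgccggaagtggccccagcctcgagg
EIF3K, chr19:38619168-38619197, plus strand: gtcgtttccgtttccaccacCTCTTCCTgt
EEF2, EEF1A1, EIF3F, EIF4B, EIF3D and EIF2S3 carry the tract and fell in LNCaP at 500 nM, and EIF4A1, EIF5A and EIF2B3 lack it, fell in LNCaP95 and were not called in LNCaP. EEF1B2 is an exception, as are EEF1G and EIF1, which also fell in LNCaP without a tract at the start. EIF3K is another, as is EIF3M, since both carry the tract, were not called in LNCaP and fell in LNCaP95. EIF4A2 also carries the tract and was not called in LNCaP, but it rose in LNCaP95. EIF4G3, EIF1B, EIF5 and EIF4E3 lack the tract and rose in LNCaP95. Of the 32 tested factors without it, 11 fell and 7 rose there, so lacking the tract did not go with a fall throughout. Annotated starts can differ from the starts used in these cells. Allowing the tract to begin within 5 bases of the annotated start gave 17 of 44 (38.6%), against 21.1% of all promoters, so the excess over other promoters was smaller under the looser rule.

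In LNCaP at 500 nM IPI-9119 eEF2, both eEF1A genes, eIF1 and subunits of eEF1B, eIF3 and eIF2 fell. Of 53 factors tested at 500 nM, 16 fell and 3 rose at an adjusted p under 0.05, where 9.83% of all tested genes fell and 11% rose. The median log2 fold change of the factors was -0.16, against -0.01 over all genes tested. At 100 nM 17 fell and 4 rose, where 11.6% of genes fell and 13.7% rose. The fall was found in eEF1A (2 of 2), eEF1B (2 of 3), eEF2, eIF3 (5 of 14), eIF2 (2 of 4), the joining group (EIF2A and EIF2D of 5), the eIF4 group (EIF4B of 12 tested) and scanning (EIF1 of 4) at 500 nM, and in none of the 5 eIF2B subunits or the 3 eIF5A genes.

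EEF2, the translocation GTPase, had 338235, 309916 and 325516 normalised counts in LNCaP DMSO libraries, 233455, 180892 and 147090.0 at 100 nM and 194513, 176496 and 165439 at 500 nM. Every treated library was below every DMSO library, and the level at 500 nM was 0.550-fold that of DMSO (log2 -0.86 ± 0.180 SE, adjusted p = 0.00677). EIF1, which guards start-codon choice, had 14259.7, 17559 and 15857 at 500 nM, against 23938, 27631 and 30094 in DMSO. It fell without overlap of the groups (log2 -0.78 ± 0.124 SE, adjusted p = 0.00160). EEF1A1, which delivers aminoacyl-tRNA, had 248405, 237612 and 241574 at 500 nM, against 338229, 358732 and 386446 in DMSO. The groups did not overlap and the log2 fold change was -0.57 ± 0.168 SE (adjusted p = 0.0339), but reads of EEF1A1 can also match its many processed pseudogenes, so its counts are uncertain. Its call was lost without any 1 of DMSO replicates 2 and 3 or of the 3 libraries at 500 nM (adjusted p 0.0828 to 0.126), and without the filter on low genes (adjusted p = 0.128).

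Of the 14 eIF3 genes, 5 fell and the other 9 were not called. EIF3L, a subunit of the eIF3 octamer, had 7721, 7639.9 and 7198 at 500 nM, against 11035, 11228 and 11744 in DMSO (log2 -0.59 ± 0.112 SE, adjusted p = 0.00411). EIF3E, EIF3H and EIF3D also fell, with log2 fold changes of -0.55 ± 0.112, -0.54 ± 0.110 and -0.50 ± 0.0860 SE (adjusted p = 0.00609, 0.00589 and 0.00254), as did EIF3F at -0.50 ± 0.123 SE (adjusted p = 0.0148). EIF3D binds the cap of some mRNAs, and EIF3E, EIF3F and EIF3H are octamer subunits. EIF3A and EIF3B, which hold the complex together, had log2 fold changes of 0.02 ± 0.124 and 0.05 ± 0.109 SE and were not called.

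Of the eIF2 subunits, the gamma subunit EIF2S3, which binds GTP and the initiator tRNA, had 6423, 6101 and 6392 at 500 nM, against 8714, 8549 and 8927 in DMSO. It fell with little spread between libraries (log2 -0.47 ± 0.0714 SE, adjusted p = 0.00121), although reads can also match the copy EIF2S3L. The alpha subunit EIF2S1, the site of stress-kinase phosphorylation, went the other way, with 3256, 3009.6 and 3131 at 500 nM, against 2722, 2345 and 2467 in DMSO (log2 0.32 ± 0.0803 SE, adjusted p = 0.0167). The other factors that rose were the cap-binding relatives EIF4E3 (log2 0.56 ± 0.142 SE, adjusted p = 0.0175) and EIF4E2 (log2 0.27 ± 0.0870 SE, adjusted p = 0.0495). EIF4E3 had 215, 232 and 236 at 500 nM, against 139.6, 139 and 188 in DMSO. EIF4E2 had 1740.4, 1798 and 1686 at 500 nM, against 1508, 1388 and 1444 in DMSO. No treated library overlapped a DMSO library for either gene. In this comparison the groups also did not overlap for factors that were not called, such as EIF1B, EEF1D and EIF3K, so non-overlap alone says little.

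At 100 nM the largest rises in LNCaP were those of EIF4E2, EIF2S1 and the eIF2B subunits EIF2B5 and EIF2B1, with log2 fold changes of 0.41 ± 0.0870, 0.41 ± 0.0803, 0.38 ± 0.0866 and 0.25 ± 0.0763 SE. EIF4E2 had 1795, 2138 and 1841 and EIF2S1 3333, 3407 and 3232 normalised counts at 100 nM. EIF2B5, the catalytic subunit of eIF2B, had 1910.4, 1915 and 1847 at 100 nM, against 1558, 1456 and 1352 in DMSO. EIF2B1, its alpha subunit, had 1586, 1628 and 1499.8 at 100 nM, against 1288, 1304 and 1377 in DMSO. In all 4 genes the 100 nM libraries were above the DMSO libraries. The largest falls were EIF1 (-0.92 ± 0.124 SE), EEF2 (-0.82 ± 0.180 SE), EIF2S3L (-0.62 ± 0.145 SE) and EEF1A1 (-0.57 ± 0.168 SE). EIF1 had 15942, 14719 and 12594 and EEF1A1 293228, 240945 and 204389 at 100 nM. EIF2S3L had 99.9, 103 and 107 at 100 nM, against 152, 141 and 187 in DMSO, and shares sequence with EIF2S3. The calls of EIF2B1, EEF1A1 and EIF2S3L at 100 nM were lost in 4, 3 and 1 of the 6 fits that left out 1 library, and that of EEF1A1 also without the filter on low genes (adjusted p = 0.121).

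Of the 19 calls at 500 nM, 9 held in all 6 fits that left out 1 library, namely EEF2, EIF1, EIF3L, EIF3E, EIF3H, EIF3D, EEF1B2, EIF2S3 and EIF2D, and the other 10, with all 3 rises among them, were lost in at least 1. Of the 21 calls at 100 nM 10 held in all 6 such fits, of which EIF4E2, EIF2B5 and EIF2S1 were rises and 7 were falls (EEF2, EIF1, EIF2A, EIF2S2, EIF2S3, EIF3D and EIF3H). At 500 nM the number called was 9 without DMSO replicate 2, 10 without DMSO replicate 3 or replicate 3 at 500 nM, 12 without replicate 1 or 2 at 500 nM and 24 without DMSO replicate 1. Over all genes 2671 were called there with all libraries, and 1572, 1475 and 3891 without DMSO replicate 2, 3 and 1. At 100 nM leaving out DMSO replicate 3 gave 11, replicate 2 of DMSO 12 and replicate 1 of DMSO 27. Over all genes 3250 were called at 100 nM with all libraries, and 1736, 1753 and 4617 without DMSO replicate 3, 2 and 1. The counts of factors thus moved with those of all genes.

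**Figure D2:**
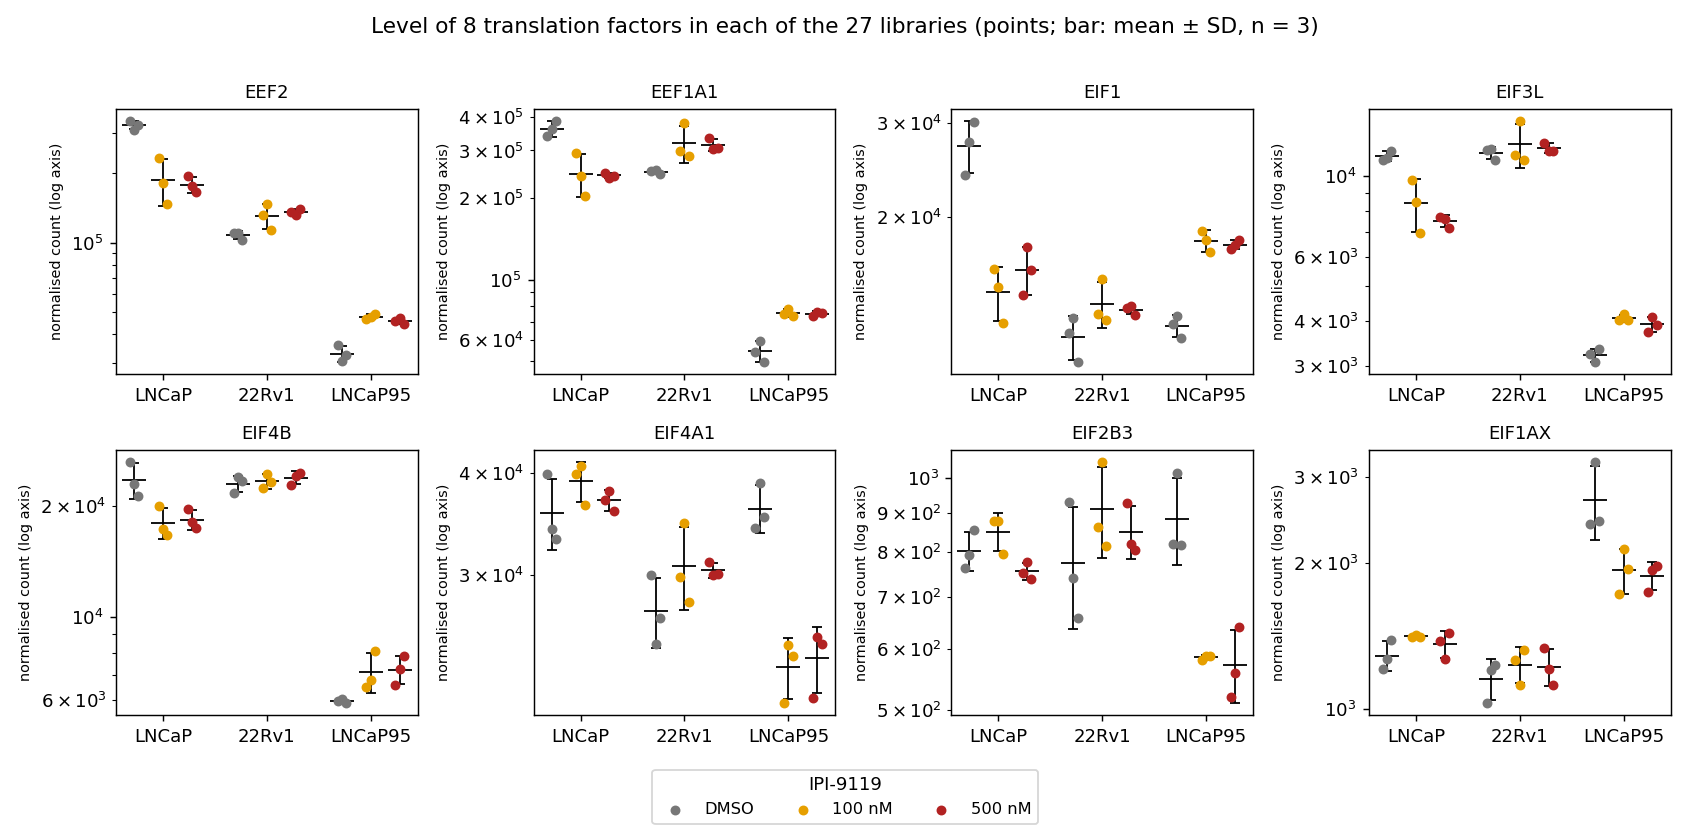
Normalised counts of 8 factors in each library by line and dose (log axis; points are libraries, bars the mean ± SD of 3). EEF2 stands at 165439 to 194513 in LNCaP at 500 nM against 309916 to 338235 in LNCaP DMSO, and at 44186 to 47072 in LNCaP95 at 500 nM against 30584 to 35841 in LNCaP95 DMSO.

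In treated LNCaP95 eEF2, both eEF1A genes, 2 of the 3 eEF1B genes and eIF1 rose, and the eIF4F genes EIF4A1, EIF4G1 and EIF4E fell, as did EIF5A, EIF1AX and EIF2B3. At 500 nM 16 of 53 factors rose and 13 fell, where 28.2% of all tested genes rose and 24.1% fell, so the number called was close to the background. With library totals set equal the split was 13 and 13, and 50.3% of all called genes rose, against 54.0% in the reported fit. At 100 nM 14 rose and 16 fell, where again 28.2% of genes rose and 24.1% fell, and with equal totals 11 rose and 18 fell. Of all genes called at 100 nM, 48.9% rose with equal totals, against 53.9% in the reported fit. The median factor moved by -0.07 on the log2 scale at 500 nM, against 0.03 over all genes.

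EEF2 had 45568, 47072 and 44186 normalised counts in LNCaP95 at 500 nM, against 35841, 30584 and 32516 in DMSO. It rose 1.39-fold without overlap (log2 0.47 ± 0.0995 SE, adjusted p = 0.00147). EIF1 had 17367, 17714 and 18071 at 500 nM, against 12546, 12999 and 11823 in DMSO (log2 0.51 ± 0.0785 SE, adjusted p = 0.000132). EEF1A1 had 73427, 76288 and 75112 at 500 nM, against 54116, 59407 and 49892 in DMSO, and also rose (log2 0.46 ± 0.113 SE, adjusted p = 0.00380). The scaffold paralog EIF4G3 rose by 0.43 ± 0.117 SE on the log2 scale (adjusted p = 0.00798), with 2465, 1744 and 1944 at 500 nM, against 1594, 1367 and 1577 in DMSO.

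On the falling side, EIF4A1, the helicase of eIF4F, had 21218, 25200.3 and 24717 normalised counts at 500 nM, against 34266, 38896 and 35253 in DMSO. The treated libraries were all lower (log2 -0.61 ± 0.105 SE, adjusted p = 0.000307). EIF2B3, the gamma subunit of the exchange factor, had 519, 558 and 641 at 500 nM, against 819.7, 1015 and 817 in DMSO (log2 -0.62 ± 0.101 SE, adjusted p = 0.000190). EIF1AX, the X-linked eIF1A gene, had 1738, 1935 and 1969 at 500 nM, against 2397, 3226 and 2442 in DMSO (log2 -0.50 ± 0.112 SE, adjusted p = 0.00209). EIF3K had 2378, 3096 and 2813 at 500 nM, against 3485, 4699 and 3403 in DMSO (log2 -0.48 ± 0.121 SE, adjusted p = 0.00499). EIF5A, which relieves stalled peptide-bond formation, EIF4G1 and EIF4E fell by smaller amounts, with log2 fold changes of -0.46 ± 0.0900, -0.40 ± 0.106 and -0.34 ± 0.0810 SE (adjusted p = 0.000857, 0.00626 and 0.00330). EIF4A1 and EIF5A share sequence with other copies, so some of their reads could have been placed elsewhere.

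At 100 nM the largest rises in LNCaP95 were EEF2 (0.53 ± 0.0995 SE), EIF1 (0.53 ± 0.0785 SE), EIF4G3 (0.49 ± 0.117 SE) and EEF1A1 (0.47 ± 0.113 SE). EEF2 had 46595, 47691 and 48784 normalised counts at 100 nM and EIF1 18833, 18069.8 and 17156. EIF4G3 had 2315, 1894 and 2182 and EEF1A1 74703, 78051 and 73479.6. All were above the DMSO libraries given above. The largest falls were EIF5A2 (-0.79 ± 0.273 SE), EIF4A1 (-0.64 ± 0.105 SE), EIF2B3 (-0.59 ± 0.101 SE) and EIF3K (-0.51 ± 0.121 SE). EIF4A1 had 20915, 24645 and 23847 at 100 nM, EIF2B3 had 580.3, 588 and 586, and EIF3K had 2513, 2808 and 2707, all below DMSO. EIF5A2, the second eIF5A gene, had 28.9, 20.1 and 27.2 at 100 nM, against 32.6, 54.8 and 47.8 in DMSO, and its call was lost in 3 of 6 fits that left out 1 library.

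Of the 29 calls in LNCaP95 at 500 nM, 20 held in all 6 fits that left out 1 library, 11 of them rises and 9 falls. The count was between 23 and 27 in those fits, where 5869 to 6189 of all genes were called, against 6715 with all libraries. EIF2A was lost in 5 of the 6, EIF4B and EIF3J in 4, EIF5B, EIF4A2, EIF4H and EIF3F in 3, and EIF3M and EIF2S2 in 2. With equal library totals EIF2A, EIF4A2 and EIF4B lost their rise (adjusted p = 0.0886, 0.0581 and 0.0571).

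**Figure D3:**
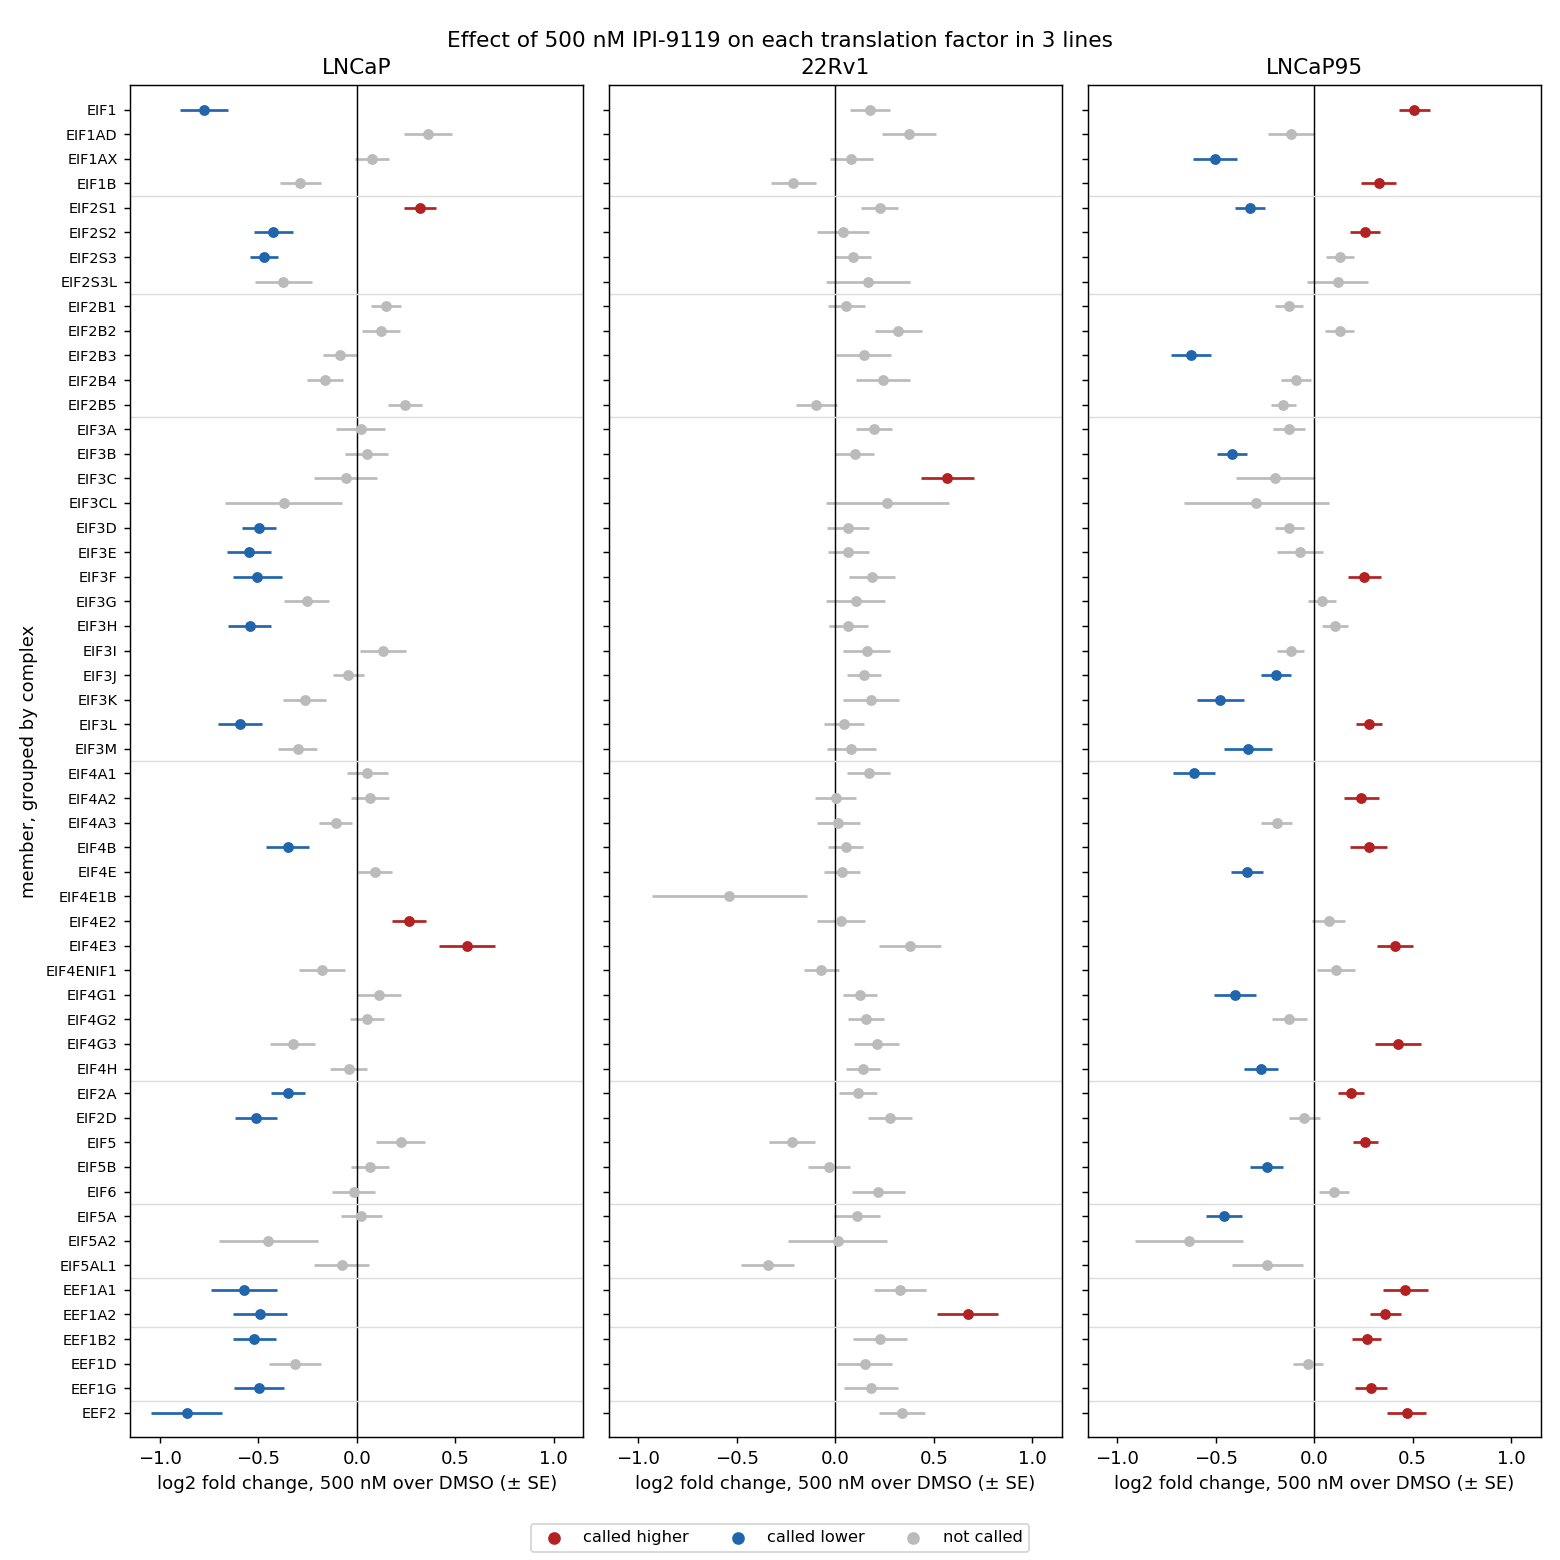
Log2 fold change of each factor at 500 nM over DMSO, with its SE, in LNCaP, 22Rv1 and LNCaP95, grouped by complex and coloured by call. In LNCaP 16 of 53 factors were called lower and 3 higher, in 22Rv1 2 of 54 were called higher, and in LNCaP95 16 of 53 were called higher and 13 lower.

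Many of the factors that fell in LNCaP rose in LNCaP95. At 500 nM 11 factors fell in LNCaP and rose in LNCaP95, which is 68.75% of the 16 that fell in the first line and of the 16 that rose in the second. Over all genes 470 of 12219 (3.85%) did so, 38.5% of those that fell in LNCaP and 13.6% of those that rose in LNCaP95. The 11 were EEF1A1, EEF1A2, EEF1B2, EEF1G, EEF2, EIF1, EIF2A, EIF2S2, EIF3F, EIF3L and EIF4B, so that 5 of the 6 genes of eEF1A, eEF1B and eEF2 were among them. No factor fell in both lines, 1 (EIF4E3) rose in both, and EIF2S1 rose in LNCaP and fell in LNCaP95. Over all 12219 genes 201 fell in both, 521 rose in both (39.7% of those that rose in LNCaP) and 294 rose in LNCaP and fell in LNCaP95. At 100 nM 10 factors fell in LNCaP and rose in LNCaP95, 58.8% of the 17 that fell and 71.4% of the 14 that rose, where 686 of 12219 genes (5.61%) did so, 47.5% of those that fell in LNCaP and 19.9% of those that rose in LNCaP95. The share among the factors that fell in LNCaP was thus nearer to that of all genes at 100 nM than at 500 nM, a difference that was not tested.

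The difference of the 500 nM effect between the lines, LNCaP95 minus LNCaP, was 0.54 to 1.33 on the log2 scale for the 11. They were chosen by their calls in the same libraries, so these differences restate the choice and add no support to it. In the fits that left out 1 library, 4 of the 11 (EEF2, EIF1, EIF3L and EEF1B2) kept the call in both lines. Over the 53 factors 18 differences were called higher and 11 lower, where 19.8% of genes were higher and 19.1% lower, and with equal totals 17 and 14. Of all genes called, 39.5% were higher with equal totals, against 50.9% in the reported fit. EIF1, among the 11, differed by 1.28 ± 0.144 SE and EEF2, also among them, by 1.33 ± 0.185 SE. The LNCaP and LNCaP95 fits share no library.

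The values of the rest of the 11 follow by complex. EEF1A2, the eEF1A paralog of muscle and neurons, had 30314, 31799.6 and 27866 normalised counts in LNCaP at 500 nM, against 39418, 42951 and 44036 in LNCaP DMSO. In LNCaP95 it had 16752, 16067 and 14932 at 500 nM, against 12716, 11569.8 and 12867 in DMSO. EEF1B2, the exchange subunit of eEF1B, had 9731, 10508 and 10106 in LNCaP at 500 nM against 12529.8, 14903 and 16316 in DMSO. In LNCaP95 it had 5017, 5721 and 5712 at 500 nM against 4453, 4692 and 4495 in DMSO. In both genes the treated and DMSO libraries did not overlap in either line.

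EEF1G, the eEF1B gamma subunit, had 53677, 53070.3 and 50209 in LNCaP at 500 nM against 71990.2, 72148 and 77222 in DMSO. In LNCaP95 EEF1G had 14956, 16725 and 16585 at 500 nM against 13394, 12957 and 13091 in DMSO. The groups did not overlap in either line. EIF3F, an eIF3 core subunit, had 6119, 6112 and 5734 in LNCaP at 500 nM against 7790.0, 8674 and 9047 in DMSO. In LNCaP95 EIF3F had 3695, 4437 and 4322 at 500 nM against 3604, 3278 and 3524 in DMSO. EIF3F was also without overlap in both lines. EIF3L in LNCaP95 had 3736, 4111 and 3888 at 500 nM against 3247, 3083 and 3342 in DMSO. All 3 treated libraries were above DMSO. EIF4B, which stimulates the eIF4A helicase, had 19556, 18069 and 17382 in LNCaP at 500 nM against 26251, 22864 and 21208 in DMSO. In LNCaP95 EIF4B had 6585, 7255 and 7867 at 500 nM against 5953, 6039.6 and 5881 in DMSO. Its fall in LNCaP was lost in all 6 fits that left out 1 library.

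EIF2S2, the eIF2 beta subunit, had 5586, 6458 and 6245 in LNCaP at 500 nM against 7326, 8409 and 8815 in DMSO. In LNCaP95 EIF2S2 had 5829, 6496 and 7012 at 500 nM against 5157, 5666 and 5309 in DMSO. Neither line showed overlap for EIF2S2. EIF2A, an initiator-tRNA binding protein apart from eIF2, had 3855, 3897 and 3812 in LNCaP at 500 nM against 4426, 4992 and 5359.8 in DMSO. In LNCaP95 EIF2A had 3094, 3275 and 3481 at 500 nM against 2925, 2803 and 2918 in DMSO. EIF2A was lower than DMSO in all treated LNCaP libraries and higher in all treated LNCaP95 libraries. EIF2S1, with the opposite pattern, had 1839.6, 1937 and 2024 in LNCaP95 at 500 nM against 2227, 2480.2 and 2566 in DMSO (log2 -0.32 ± 0.0750 SE, adjusted p = 0.00269).

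Of the 16 factors that fell in LNCaP at 500 nM, 11 have a start entry and 5 have none. Of those 11, 8 carried the pyrimidine tract (EEF1A1, EEF2, EIF2A, EIF2D, EIF2S3, EIF3D, EIF3F and EIF4B), against 3 of 29 not called and 0 of 3 that rose. EIF1, EEF1B2 and EEF1G fell without it. The 11 factors with the tract had a median log2 fold change of -0.47 in LNCaP, with 10 below 0, and the 32 tested without it had 0.04. Over all genes with an entry the tract was present in 141 of 945 that fell (14.9%), 346 of 7682 not called (4.50%) and 31 of 1032 that rose (3.00%), and without the factors and the ribosomal protein genes in 97 of 881 that fell (11.0%) and 4.40% of those not called. In LNCaP95 the 11 had a median of 0.19, with 6 rises and 2 falls (EIF3K and EIF3M), and the others -0.14. Over all genes the tract was about as frequent there among genes that rose (5.68%), fell (5.43%) or were not called (5.06%). In 22Rv1 the medians were 0.11 with the tract and 0.14 without. These shares describe letters at annotated starts and name no cause.

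**Figure D4:**
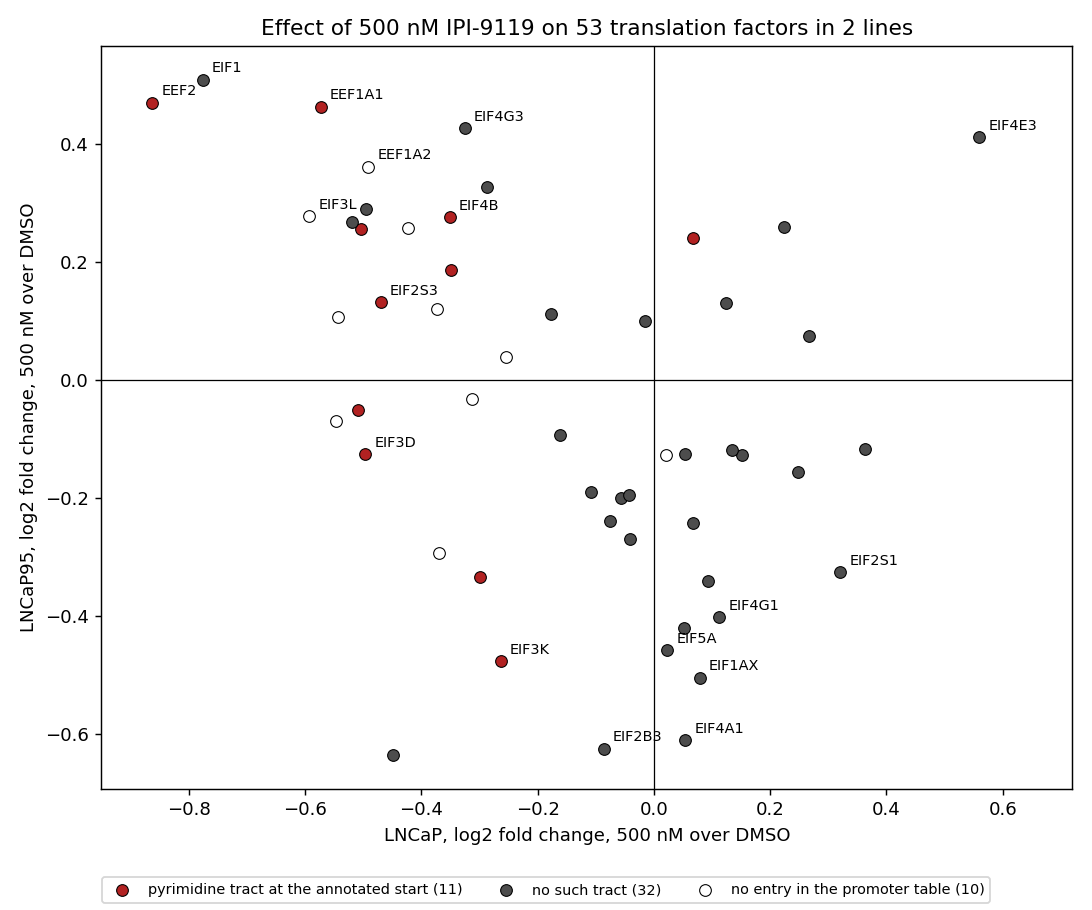
Log2 fold change at 500 nM over DMSO of 53 factors in LNCaP (x axis) and LNCaP95 (y axis), with fill by pyrimidine tract at the annotated start (11 with, 32 without, 10 with no entry). The factors in the upper left, lower in LNCaP and higher in LNCaP95, include EEF2 at -0.86 and 0.47 and EIF1 at -0.78 and 0.51.

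In 22Rv1 EEF1A2 and EIF3C rose at both doses, and no other factor was called. At 500 nM 2 of 54 rose and none fell, where 3.47% of genes rose and 3.5% fell. At 100 nM 2 rose and none fell, where 3.19% rose and 3.36% fell. At both doses the share of factors that rose, 3.70%, was thus close to the background. Of the 54, 47 had a positive log2 fold change at 500 nM, with a median of 0.13 against 0.00 over all genes, and 10 had an unadjusted p under 0.05. The shares of all genes above 0 or under that p are not given here. With equal totals these medians were 0.05 and -0.09. EEF1A2 had 10151, 9883 and 10743 normalised counts at 500 nM, against 7439, 6166 and 5817 in DMSO. Every treated library was above every DMSO library, by 1.59-fold in the fit (log2 0.67 ± 0.153 SE, adjusted p = 0.0220). EIF3C, a core eIF3 subunit, had 248, 233 and 228 at 500 nM, against 166, 165 and 146 in DMSO (log2 0.57 ± 0.134 SE, adjusted p = 0.0253), but it shares nearly all of its sequence with EIF3CL and its counts are uncertain. At 100 nM EEF1A2 had 10546, 13385 and 8222 and EIF3C 227, 279 and 219. Each of these calls at 500 nM was lost in 5 of 6 fits that left out 1 library, with no call left without DMSO replicate 2 or 3 or any 1 library at 500 nM. At 100 nM no call was left without DMSO replicate 2 or 3 or replicate 1 at 100 nM, 1 without replicate 2 and 4 without replicate 3. Over all genes 844 were called without replicate 2 and 1184 without replicate 3, against 889 with all libraries. EEF2 and EEF1A1 had log2 fold changes of 0.34 ± 0.117 and 0.33 ± 0.132 SE and were not called (adjusted p = 0.105 and 0.161).

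The 22Rv1 effect differed from the LNCaP effect for many of the same factors. The difference of the 500 nM effects, 22Rv1 minus LNCaP, was called higher for 17 of 53 factors and lower for 1, where 6.79% of genes were higher and 7.52% lower. With equal totals 13 were higher and 3 lower. Of all genes called, 21.4% were then higher, against 47.4% in the reported fit. EEF2 differed by 1.20 ± 0.185 SE (adjusted p = 7.89e-05), EEF1A2 by 1.16 ± 0.191 SE (adjusted p = 0.000172) and EIF1 by 0.95 ± 0.144 SE (adjusted p = 7.15e-05). Between LNCaP95 and 22Rv1 2 factors had a higher and 13 a lower effect in LNCaP95, where 13% of genes were higher and 12.4% lower, and with equal totals 4 and 10. Equal totals put 61.6% of all called genes higher there, against 51.2% in the reported fit. EIF4A1 differed by -0.78 ± 0.146 SE (adjusted p = 0.000485), EIF2B3 by -0.77 ± 0.164 SE (adjusted p = 0.00153) and EIF3C by -0.77 ± 0.219 SE (adjusted p = 0.0122).

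No factor was called between the doses. In LNCaP 500 nM against 100 nM gave no call among 53 factors, where 0.00779% of genes were higher and 0% lower, and 2 factors had an unadjusted p under 0.05. The share of all genes under that p is not given here. In 22Rv1 and LNCaP95 there was no call, where 0% of genes were higher and 0% lower, and no factor had an unadjusted p under 0.05. The quasi-likelihood test of edgeR on the recovered reads also called none in any line. A p that misses the threshold does not show that the doses act alike. In LNCaP the SE of EEF2 for this comparison was 0.180 on the log2 scale, with a difference of -0.04.

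Without drug the lines already differed in these genes, and EEF2 and EEF1A1 were lower in LNCaP95 than in either of the other lines. Ribosomal protein genes in DMSO took 4.09 to 4.13% of reads in LNCaP95, 13.4 to 15.6% in LNCaP and 10.2 to 11.4% in 22Rv1. The low level in LNCaP95 was thus not particular to the factors, and what the 2 sets of genes share was not tested. In DMSO 9 of 54 factors were higher and 30 lower in 22Rv1 than in LNCaP, where 39.3% of genes were higher and 35.5% lower. In LNCaP95 6 were higher and 30 lower than in LNCaP, where 34% were higher and 32.5% lower, and with equal totals 14 and 27. Of all genes called between these lines, 63.2% were higher with equal totals, against 51.1% in the reported fit. Against 22Rv1 14 were higher and 25 lower in LNCaP95, where 35.4% were higher and 40.8% lower, and with equal totals 21 and 23. Equal totals put 52.7% of all genes called against 22Rv1 higher, where the reported fit had 46.5%. Setting totals equal shifted the median log2 value of all genes by 0.21 for LNCaP95 against LNCaP and 0.14 for LNCaP95 against 22Rv1 in DMSO, by -0.16 for the 500 nM effect of 22Rv1 minus LNCaP, and by less than 0.1 in the other 12 comparisons.

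EEF2 in LNCaP95 DMSO, at 30584 to 35841 normalised counts, was below LNCaP DMSO at 309916 to 338235 (log2 -3.30 ± 0.142 SE, adjusted p = 9.62e-16). EEF2 in 22Rv1 DMSO was 110678, 109957 and 102709, also below LNCaP (log2 -1.59 ± 0.142 SE). EEF1A1 was lower in LNCaP95 than in LNCaP (log2 -2.73 ± 0.149 SE) and 22Rv1 (log2 -2.20 ± 0.149 SE), with 54116, 59407 and 49892 in LNCaP95 and 251187, 254358 and 245272 in 22Rv1. EEF1G was lower in LNCaP95 than in LNCaP (log2 -2.49 ± 0.121 SE), with 13394, 12957 and 13091 in LNCaP95. No library of one line overlapped another for these genes in the comparisons given.

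Among the other genes chosen, EIF1AX was higher in LNCaP95 DMSO, with 2397, 3226 and 2442, than in LNCaP DMSO, with 1209, 1269 and 1390.2 (log2 1.05 ± 0.107 SE). EIF4E3 and EIF1AD were higher in LNCaP95 than in LNCaP by 0.96 ± 0.123 and 0.82 ± 0.124 SE. EIF4E3 had 304, 313 and 285 in LNCaP95, against 69.8, 73.4 and 86.6 in 22Rv1, a difference of 1.96 ± 0.123 SE. EIF1AX and EIF4G1 were also higher in LNCaP95 than in 22Rv1, by 1.21 ± 0.107 and 0.97 ± 0.101 SE, and EIF3CL, uncertain beside EIF3C, was lower (log2 -2.00 ± 0.324 SE). In 22Rv1 EIF5A, with 20372, 18576 and 18484 against 10930.3, 8880.5 and 9746 in LNCaP, was higher by 0.96 ± 0.109 SE and its copy EIF5AL1 by 1.09 ± 0.160 SE, both counted with shared sequence. EEF1A2 was lower in 22Rv1, with 7439, 6166 and 5817, than in LNCaP DMSO (log2 -2.71 ± 0.137 SE), and EIF2S3L was also lower (log2 -1.89 ± 0.159 SE). EIF4E1B, a germ-cell form of eIF4E, averaged 17.5 in 22Rv1 DMSO and had no read in LNCaP or LNCaP95 DMSO, which puts 22Rv1 at least 5.06-fold above LNCaP and at least 6.64-fold above LNCaP95 with a floor of 3 reads per library. It reached a value of 10 in 6 libraries and passed the level rule through 22Rv1, so its difference, 1 of the 9 higher than LNCaP and 1 of the 25 lower in LNCaP95 than in 22Rv1, was fixed by that rule.

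Per kilobase of the principal GENCODE transcript, EEF2 led in LNCaP DMSO at 102578 normalised counts per kilobase, followed by EEF1A1 at 81318 and EEF1G at 48448. In 22Rv1 DMSO EEF1A1 led at 56355, with EEF2 at 34065. In LNCaP95 DMSO EIF4A1 led at 20580, and EEF1A1 was at 12266 and EEF2 at 10424 normalised counts per kilobase. The transcript used for EEF1A1 is 4441 bases and for EIF4G2 1969 bases, so their places in the order depend on that choice.

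**Figure D5:**
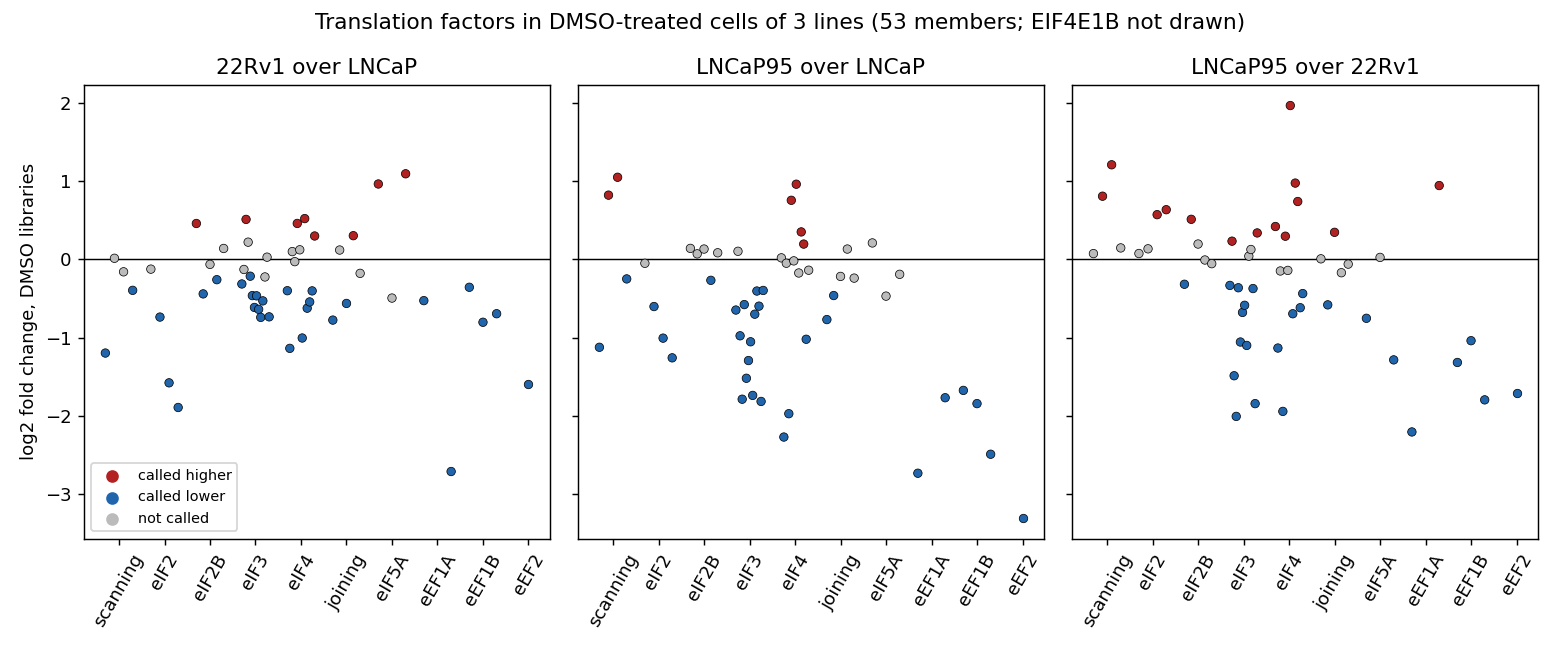
Log2 fold change between lines in DMSO for 53 factors, by complex, for 22Rv1 over LNCaP, LNCaP95 over LNCaP and LNCaP95 over 22Rv1 (EIF4E1B, at 0 in LNCaP and LNCaP95, is not drawn). EEF2 lies at -3.30 for LNCaP95 over LNCaP and -1.59 for 22Rv1 over LNCaP.

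The balance of paralogs is given as the share of 1 gene of a pair per kilobase, with no test. The size of a share depends on the transcript lengths used, such as 11523 bases for EIF4E and 4441 for EEF1A1, which are the same in every library. EIF4A2 made up 8.62 to 8.98% of EIF4A1 and EIF4A2 together at 500 nM in LNCaP95, against 4.54 to 5.51% in DMSO. EIF4G3 made up 6.99 to 8.03% of its pair with EIF4G1 at 500 nM, against 4.03 to 4.80% in DMSO. EIF4E3 made up 28.4 to 33.6% of its pair with EIF4E at 500 nM, against 19.9 to 22.6% in DMSO. In each of these pairs the treated LNCaP95 libraries lay above all LNCaP95 DMSO libraries. The EIF4E3 share was also higher at 500 nM in LNCaP, at 22.1 to 25.6% against 17.4 to 20.8% in DMSO. In 22Rv1 the EIF4E3 share was 9.11 to 9.94% at 500 nM against 7.07 to 8.09% in DMSO. The EIF4G3 share at 500 nM overlapped DMSO in both LNCaP and 22Rv1. The EIF4A2 share at 500 nM overlapped DMSO in LNCaP and was below all DMSO libraries in 22Rv1. EEF1A2 was 30.0 to 36.3% of the eEF1A pair in LNCaP95, 20.1 to 24.1% in LNCaP and 4.97 to 7.25% in 22Rv1 over all doses, with line ranges that do not overlap.

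Of 30 regulators of these factors, 5 fell and 4 rose in LNCaP at 500 nM, 12 rose and 9 fell in LNCaP95, and 1 rose in 22Rv1. Over all genes 9.83% fell and 11% rose in LNCaP, 28.2% rose and 24.1% fell in LNCaP95, and 3.47% rose and 3.5% fell in 22Rv1. The median log2 fold changes of the regulators were -0.15 in LNCaP, 0.07 in LNCaP95 and 0.05 in 22Rv1, against -0.01, 0.03 and 0.00 over all genes. EIF4EBP1, the repressor of eIF4E, fell in LNCaP (log2 -1.08 ± 0.0964 SE, adjusted p = 4.62e-05) and rose in LNCaP95 (log2 0.70 ± 0.0859 SE). EIF2AK3, the endoplasmic reticulum stress kinase of eIF2, rose in both, with log2 fold changes of 1.11 ± 0.117 SE in LNCaP and 1.30 ± 0.0921 SE in LNCaP95. DDIT4, an inhibitor of mTOR signalling, fell in LNCaP (-1.0 ± 0.143 SE) and rose in LNCaP95 (1.65 ± 0.176 SE), and SESN2 rose in LNCaP95 (1.99 ± 0.143 SE). MKNK2, a kinase of eIF4E, rose in 22Rv1 (0.57 ± 0.0921 SE, adjusted p = 0.00386).

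Of 14 genes of poly(A) binding, termination and recycling, 1 fell and 1 rose in LNCaP at 500 nM, 5 fell and 1 rose in LNCaP95, and 2 rose in 22Rv1, beside the shares of all genes just given. Their median log2 fold changes were 0.13 in LNCaP, -0.05 in LNCaP95 and 0.19 in 22Rv1, against -0.01, 0.03 and 0.00 over all genes. PABPC1, the main cytoplasmic poly(A)-binding protein, fell in LNCaP (-0.60 ± 0.133 SE). In 22Rv1 the calls of PABPC1 (0.34 ± 0.0892 SE) and ETF1 (0.38 ± 0.0944 SE) were lost in all 6 fits that left out 1 library. ABCE1, which recycles ribosomes, fell in LNCaP95 (-0.64 ± 0.0925 SE). None of 9 mitochondrial translation factors was called in LNCaP or 22Rv1, and in LNCaP95 5 fell and 1 rose, where 24.1% of all genes fell and 28.2% rose. Their medians were -0.08 in LNCaP, -0.21 in LNCaP95 and 0.14 in 22Rv1, against -0.01, 0.03 and 0.00 over all genes. The falls included GFM1, the mitochondrial elongation factor G, at -0.51 ± 0.0753 SE, and the rise was that of MTIF3, a mitochondrial initiation factor, at 0.38 ± 0.0793 SE.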

How the data were processed

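The deposited table gives 1 value per gene and library as signal, deposited by the authors as normalised gene counts. In the values 100% were whole multiples of 1 step per library, to a tolerance of 1e-06, as counts divided by 1 factor per library would be. Per the submitters' processing notes reads were aligned with STAR 2.3.1z4 to hg19, and featureCounts and DESeq were used; the strand setting of counting and the annotation are not given in the sources used here. Overlapping and antisense genes cannot be told apart.

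Genes were tested with limma 3.58.1 (R 4.3.3, trend, Benjamini-Hochberg adjustment over all genes tested, threshold 0.05). The scale was log2 of the value plus a pseudocount of 1, which understates changes of low genes. Within a line a gene needed a value of at least 10 in at least 3 of the 9 libraries of that line. For differences of effects it had to pass in each of the 3 lines. For DMSO comparisons it had to pass in at least 3 of the 9 DMSO libraries. Each line was fitted alone; the DMSO and between-line fits used all 27 libraries. The quasi-likelihood test of edgeR 4.0.16 on the recovered reads was an alternative, beside a pseudocount of 10, no filter, equal totals, a replicate block, LNCaP replicates 2 and 3 only, and each library left out.

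Same-numbered libraries deviated together in LNCaP95 (9 of 9 correlations over 0.1, 0.128 to 0.470) and, between 500 nM and either DMSO or 100 nM, in LNCaP (6 of 6, 0.131 to 0.389). There the numbers were taken to pair them, from the data, since the labels do not say what a number shares. The reported fits, with their SEs, p-values and counts, did not use this pairing, which entered only as the replicate block. Members and lists were chosen with earlier results of these data known. Values per library are given for the 4 largest called changes each way against DMSO and for factors called in opposite directions. For the 3 largest differences between lines each way they are given for some genes only. Paralog pairs are given as ranges of shares for some pairs, and the other pairs are left out. Lengths are those of GENCODE 29 principal transcripts (53 of 54 genes) and starts those of RefSeq GRCh38.p14 (44 of 54). Some markers of the luminal list are not reported here. Scripts were tested on simulated data.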

Additional observations from a re-analysis of the deposited data

Results flagged for a closer look

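For 9 values the effect of 500 nM IPI-9119 differed between 2 lines by a test of the difference itself in limma (3 libraries per group, adjusted over all genes tested). For 22Rv1 minus LNCaP the log2 differences were 1.20 for EEF2 (adjusted p = 7.89e-05), 1.16 for EEF1A2 (adjusted p = 0.000172) and 0.95 for EIF1 (adjusted p = 7.15e-05). For LNCaP95 minus LNCaP they were 1.33 for EEF2 (adjusted p = 4.76e-06), 1.28 for EIF1 (adjusted p = 2.98e-07) and 1.04 for EEF1A1 (adjusted p = 9.35e-05). For LNCaP95 minus 22Rv1 they were -0.78 for EIF4A1 (adjusted p = 0.000485), -0.77 for EIF2B3 (adjusted p = 0.00153) and -0.77 for EIF3C (adjusted p = 0.0122). These 9 are the 3 largest called differences of each pair of lines, so their size is in part a result of that choice. All 9 held in each of the 12 fits that left out 1 library.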

How the results depend on the processing

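No refitted call changed direction under any alternative run. All called factors were refitted, but of the other translation genes only the called ones of smallest p in each list and comparison. Against the reported fits, the pseudocount of 10 ended 0 of 387 calls, edgeR 9, no filter 14, equal totals 29 and the replicate block 16, LNCaP replicates 2 and 3 alone ended 11 of 217, and leaving out 1 library ended 315 of 2850. With LNCaP replicates 2 and 3 only, 1 factor was called between 500 nM and 100 nM in LNCaP, against 0. Over all genes 755 were called there, against 1. The replicate block gave 22 and 23 called factors at 500 and 100 nM in LNCaP, 2 and 2 in 22Rv1, and 33 and 34 in LNCaP95. Over all genes the block called 3622 and 4339, 913 and 768, and 7789 and 7840, in the same order. In LNCaP and LNCaP95 it ended no refitted call against DMSO or in the differences of effects. In LNCaP at 100 nM against DMSO and in 22Rv1 the libraries share only a number by the check (0 of 3 same-numbered correlations over 0.1 in the first, at most 2 of 3 in any 22Rv1 comparison). Leaving out 1 library, the number of called factors was 9 to 24 at 500 nM and 11 to 27 at 100 nM in LNCaP (19 and 21 with all libraries), 0 to 2 and 0 to 4 in 22Rv1 (2 and 2), and 23 to 27 at both doses in LNCaP95 (29 and 30). The number of all genes called was 1475 to 3891 and 1736 to 4617 in LNCaP (2671 and 3250 with all libraries). In 22Rv1 it was 384 to 697 and 261 to 1184 (946 and 889), and in LNCaP95 5869 to 6189 and 5622 to 6167 (6715 and 6713). For the difference of the 500 nM effect the number of called factors was 14 to 17 for 22Rv1 minus LNCaP, 26 to 30 for LNCaP95 minus LNCaP and 11 to 15 for LNCaP95 minus 22Rv1, and in DMSO 33 to 39 over the 3 pairs of lines. Over all genes these numbers were 1250 to 2196, 3949 to 4975, 2284 to 2856 and 8589 to 10185. No factor was called between doses in any of these fits. The cause of these changes was not tested. Genes near 0 reads, such as EIF4E1B, are limited by depth.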
